A study of Rattus norvegicus with 2 samples.

Results

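The cells described here are cells with high counts of Top2a, a gene of dividing cells, in the control library of a single-cell RNA sequencing series on IEC-6, an epithelial cell line from the small intestine of the rat. They were chosen by 1 gene, Top2a, and are called Top2a-high cells: cells with at least 500 counts in all, at least 3 Top2a counts, and at least 5 Top2a counts per 10000 counts. The control library held 189 of them among 5712 kept cells, and the whole series 9169 kept cells. They were compared with 2612 control cells that had 0 Top2a counts and at least 2000 counts in all, called Top2a-zero cells. The control cells had received PBS. The other library came from cells exposed to 100 ng/mL of recombinant rat tumor necrosis factor (TNF) for 72 hours per cycle over 10 cycles. Both came from thawed cells of the line, and their titles begin with different prefixes that the labels do not explain; preparation and treatment cannot be told apart.

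Top2a encodes topoisomerase II alpha, the enzyme that passes 1 DNA double strand through another and so untangles replicated chromosomes. Its transcript is scarce in resting cells, accumulates during S phase and peaks in G2 and mitosis, together with a large set of genes for the spindle, the kinetochore and cytokinesis. Many promoters of that set carry a cell cycle homology region (CHR), a short element bound by the MuvB core of the DREAM and MYB-MuvB complexes, often with CCAAT boxes bound by NF-Y upstream of it. DREAM represses these genes in resting cells, while MYB-MuvB and FOXM1 activate them late in the cycle. Genes of replication itself are driven earlier, by E2F factors.

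The promoters of Top2a and of 5 genes that recur in the results are printed to show these elements in the rat sequence. Each is the 130 bases before the annotated start in RefSeq, build GRCr8, written 5′ to 3′ on the gene's strand. Capitals mark CCAAT and the CHR-type letters TTTGAA or TTTAAA, searched on both strands (ATTGG and TTCAAA are CCAAT and TTTGAA read on the other strand).
Top2a (chr10:84473094-84473223, minus strand): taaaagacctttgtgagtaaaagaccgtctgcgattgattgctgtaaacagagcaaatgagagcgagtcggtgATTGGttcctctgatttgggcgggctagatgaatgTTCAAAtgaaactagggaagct
Nusap1 (chr3:127057165-127057294, plus strand): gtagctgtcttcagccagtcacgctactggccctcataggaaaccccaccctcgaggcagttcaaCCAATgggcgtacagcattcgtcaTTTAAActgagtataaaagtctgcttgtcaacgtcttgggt
Aurka (chr3:181560770-181560899, minus strand): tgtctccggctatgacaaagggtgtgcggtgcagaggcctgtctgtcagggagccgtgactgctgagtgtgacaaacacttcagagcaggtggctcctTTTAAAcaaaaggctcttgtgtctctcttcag
Kif11 (chr1:244536737-244536866, plus strand): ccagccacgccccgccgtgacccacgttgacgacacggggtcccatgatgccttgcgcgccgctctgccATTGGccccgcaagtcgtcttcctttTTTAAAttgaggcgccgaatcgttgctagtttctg
Ccnb1 (chr2:33655226-33655355, minus strand): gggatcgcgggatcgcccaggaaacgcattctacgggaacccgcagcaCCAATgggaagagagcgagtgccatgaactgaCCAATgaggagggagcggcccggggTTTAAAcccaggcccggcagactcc
Mxd3 (chr17:9306422-9306551, plus strand): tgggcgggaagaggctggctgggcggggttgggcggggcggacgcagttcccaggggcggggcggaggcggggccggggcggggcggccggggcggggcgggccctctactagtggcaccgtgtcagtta

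In Top2a the CHR-type letters began at position -22 from the start and CCAAT at position -57. The same order, CCAAT upstream of the CHR-type letters, was found in Nusap1 (positions -65 and -41), Kif11 (-61 and -35) and Ccnb1 (2 CCAAT at -82 and -50, the CHR-type letters at -25). Aurka had the CHR-type letters at -32 and no CCAAT in this window, and Mxd3 had neither motif. Esco2 had no entry in the table of promoters.

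Over all 27457 promoters of the table, 12.8% held a CHR-type motif and 21.5% held CCAAT in these 130 bases. Among the genes tested below, 6329 of 8451 had an entry, and 7.16% and 25.1% of them held these motifs. Of the 292 genes other than Top2a that were at least 2-fold higher in Top2a-high cells, 218 had an entry; 71 of these (32.6%) held a CHR-type motif and 106 (48.6%) held CCAAT. Both motifs in order, with CCAAT ending 15 to 35 bases upstream of a CHR-type motif, were present in 21 of the 218 (9.63%), beside 0.585% of the tested genes. For the genes at least 2-fold lower, 91 had an entry, of which 5.49% held a CHR-type motif and 28.6% held CCAAT. The E2F-type letters TTTCCCGC or TTTGGCGC were found in 4 of the 218 higher genes and 116 of the 6329 tested genes, 1.83% of each. Only these exact letters were searched, and with 4 matches the share among higher genes is known with little precision. These are letter matches in a fixed window and were not tested as binding sites.

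Top2a-high cells made up 3.31% of the kept control cells (95% exact Clopper-Pearson interval 2.86 to 3.81%, counting error only). Top2a chose them, so its own values are a description: the cells held 3 to 15 Top2a counts each, with a median of 5, and 824 counts per 1000000 counts (CPM) when their counts were summed, against 0 in the Top2a-zero cells. Any Top2a count at all was present in 1686 control cells (29.5%), and 347 cells (6.07%) had 3 or more. Of those 347 cells, 158 fell below 5 counts per 10000 and were not members; their depth had a median of 10527 counts. The members held 32.4% of the 3295 Top2a counts of the library, so most Top2a transcripts were counted in other cells, with 1 count in 1070 cells and 2 counts in 269.

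**Figure D1:**
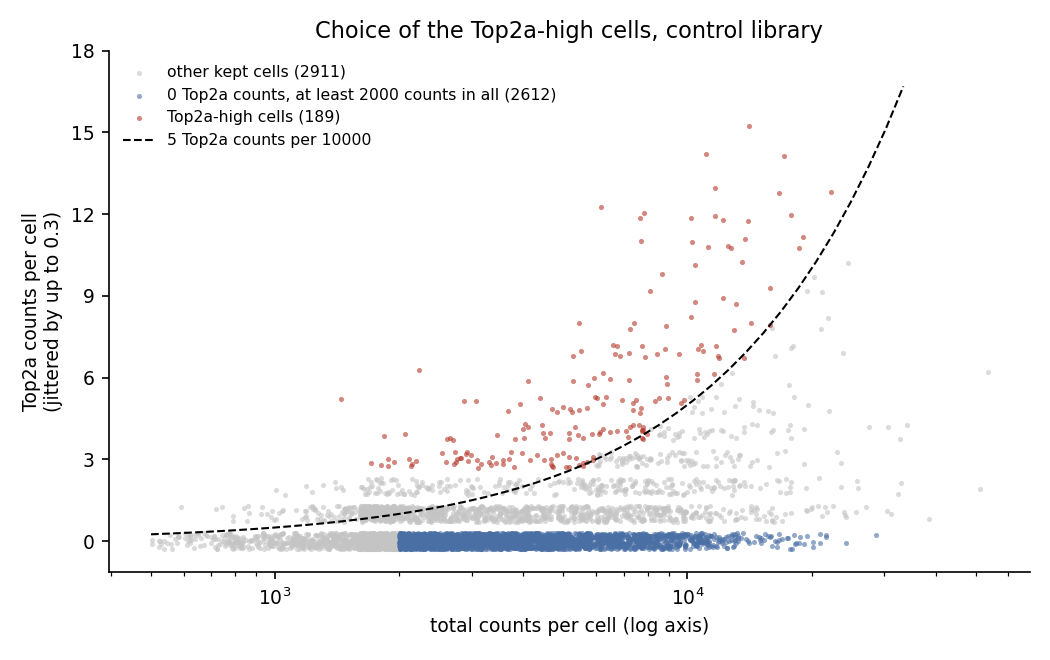
Each point is a kept cell of the control library, by its total counts (log axis) and its Top2a counts (moved at random by up to 0.3 so that points separate). The 189 Top2a-high cells (red) have at least 3 Top2a counts and lie on or above the dashed line of 5 per 10000, and the 2612 Top2a-zero cells (blue) start at 2000 counts.

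The rule has a floor in counts and a floor per 10000, and both touched cells close to the border. Just inside the second floor, 41 members with 5 to under 6 Top2a counts per 10000 had 5219 CPM in summed transcripts of the mitosis list, which joins the lists of mitotic kinases and of kinetochore genes described below. Just outside, 55 cells with 3 or more counts and 4 to under 5 per 10000 had 4605 CPM. Another 105 cells had 2 Top2a counts and at least 5 per 10000; their median depth was 2219 counts and their mitosis list stood at 3797 CPM. All members together had 5900 CPM (5769 to 6034) and the Top2a-zero cells 1825 CPM (1801 to 1849).

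Members were deeper than the cells they were compared with. Their counts per cell ran from 1446 to 22338 with a median of 5935 and a median of 2660 genes, while Top2a-zero cells had medians of 3714.5 counts and 1928 genes. Mitochondrial transcripts took a median of 2.82% of the counts in members and 3.49% in Top2a-zero cells. Doublets were left in: 27 members (14.3%) lay above the 95th percentile of counts per cell in the library, and their part in the results was not tested beyond leaving such cells out. Of 24 barcodes present in both libraries, 0 belonged to members. The library held 24207943 counts in the kept cells, of which members gave 1295176 and Top2a-zero cells 12184302, so 1 count was worth 0.772 and 0.0821 CPM.

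The label of the line was checked against lineage markers. Krt8, a keratin of simple epithelia, was at 2118 CPM in the Top2a-high and 2495 CPM in the Top2a-zero cells, and Cdh1, encoding E-cadherin, was at 327 against 435 CPM. Vim, the intermediate filament protein of mesenchymal cells, was also abundant, at 2528 against 2948 CPM. Of 27 epithelial genes listed, 21 were found in the files and 13 reached a mean of 5 CPM. The summed epithelial list was at 3674 against 4322 CPM. The summed list of mesenchymal and matrix genes was larger, at 8553 against 9819 CPM. Of 21 markers of white blood cells, endothelium and nerve found in the files, 19 stayed under 5 CPM in both groups and 13 were at 0 counts in the members, Pecam1, Itgam and Cd3e among them. The exceptions were Syt1 (83.4 against 107 CPM) and Tek (91.1 against 70.4 CPM), and the summed list was at 187 against 197 CPM, a ratio of 0.948 (0.827 to 1.08). No cells that should lack Top2a were identified here, so the share of cells with a Top2a count from free RNA was not measured, and a single Top2a count is not read as expression.

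Genes of mitosis were among those at least 2-fold higher in Top2a-high cells. Across all genes with at least 10 CPM in either group, 8451 in all, 293 (3.47%) were at least 2-fold higher in Top2a-high cells, Top2a among them, and 132 (1.56%) at least 2-fold lower. Throughout, these sizes stand in for a test: the cells come from 1 library, cells are not replicates, and no p-value was computed. Ratios are of CPM in Top2a-high over Top2a-zero cells, followed in parentheses by the exact 95% interval of counting error. Each cell with at least 2000 counts was also thinned at random to 2000, called equal depth; where this took a named gene across 2-fold or moved its ratio by over 1.5 times, the ratio at equal depth is given too. For all 293 higher genes that interval lay above 1, and for 153 it lay past 2-fold; of the 132 lower genes it lay below 1 for 123 and past 2-fold for 2. Higher genes rested on a median of 69 counts in the members and lower genes on a median of 9, so the lower genes are known with less precision. The median log2 ratio of the tested genes was -0.00. With the reference cells drawn to the members' depth (median 6050 counts), 250 genes were again called higher and 83 again lower, and with every cell thinned to 2000 counts 237 and 48 were.

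**Figure D2:**
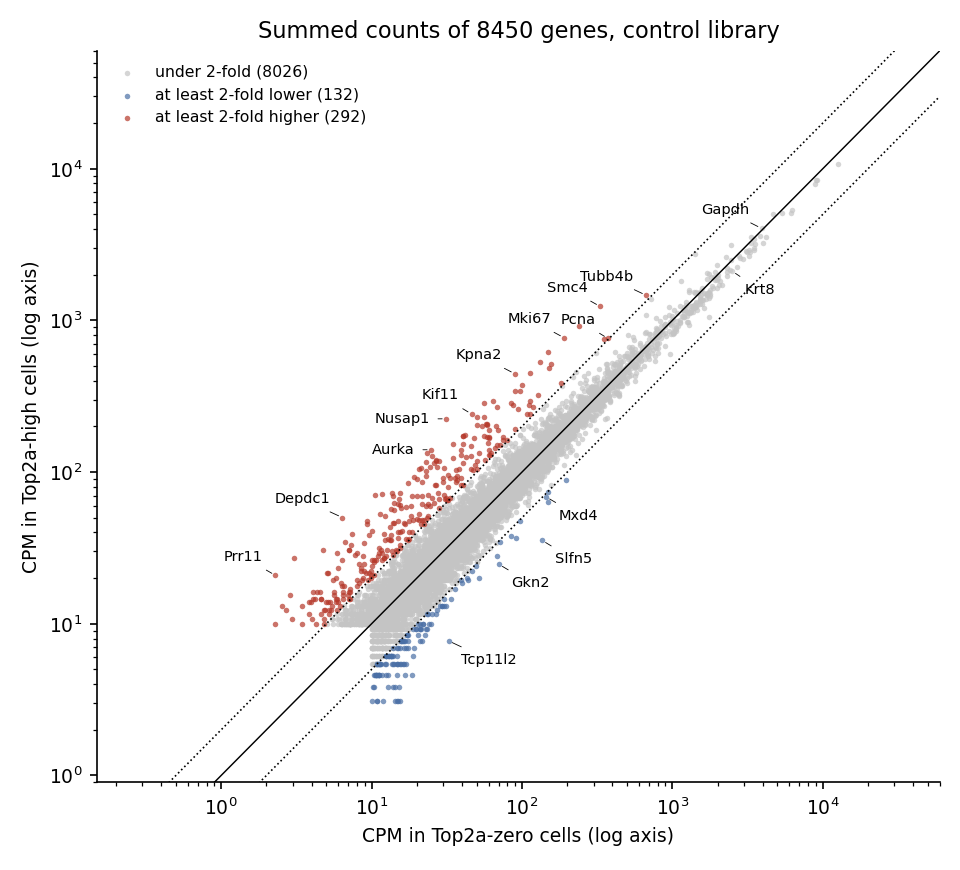
CPM of summed counts in Top2a-high cells against Top2a-zero cells of the control library, both on log axes, for each tested gene other than Top2a; groups under 3 counts are drawn at 3 counts. The solid line is equality and the dotted lines are 2-fold; 292 genes lie at least 2-fold above and 132 at least 2-fold below, and the higher genes reach to levels of about Smc4 and Tubb4b while the lower ones are mostly scarce.

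The 4 markers given with Top2a were all higher; they were named with earlier results of these data known, so their direction is not independent support. Nusap1 encodes a protein that bundles spindle microtubules near chromosomes. It was at 225 CPM in the Top2a-high and 31.4 CPM in the Top2a-zero cells, a ratio of 7.15 (6.12 to 8.35), and at 2000 counts per cell a Nusap1 count was found in 37.4% against 6.24% of cells (182 and 2612 cells). Aurka, the kinase of centrosomes and spindle poles, was at 141 against 25.0 CPM, 5.63 (4.66 to 6.79), and Mxd3, a partner of MAX in the MYC network, at 133 against 23.5 CPM, 5.66 (4.66 to 6.86). Esco2, the acetyltransferase that fixes cohesion between sister chromatids during S phase, was at 115 against 25.9 CPM, 4.44 (3.63 to 5.41). In the TNF-labelled library, where the same rule chose 462 of 3457 cells, the ratios were 9.44 for Nusap1, 7.45 for Aurka, 12.6 for Mxd3 and 10.2 for Esco2. Mki67, whose protein coats mitotic chromosomes and which marks cycling cells in pathology, was at 769 against 191 CPM, 4.03 (3.74 to 4.35). A count was present in 78.6% against 28.9% of cells at equal depth, so the transcript was also counted in Top2a-zero cells. The part of free RNA in those counts was not measured.

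Mxd3 stood apart from the other MAX network genes, which were looked up after its value was seen. Mxd4, of the same family and known from differentiating and resting cells, was lower, at 68.7 against 145 CPM, 0.475 (0.380 to 0.588). The common partner Max was at 43.2 against 59.8 CPM, 0.723 (0.541 to 0.949), Mxi1 at 0.734, Mnt at 1.07, Mga at 1.18 and Myc itself at 0.813, none past 2-fold. The opposite placement of Mxd3 and Mxd4 recurred in the TNF-labelled library, with ratios of 12.6 and 0.424.

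The kinases and cyclins that drive entry into mitosis were higher almost without exception. Of 21 tested genes of the list of cyclins, CDKs and mitotic kinases, 19 were at least 2-fold higher and 0 were lower. Over the 9310 genes that passed the same filter of a mean of 5 CPM, 3.14% were higher and 1.42% lower. These are called the shares over all genes, and 0 lower in a list of this size is close to the second. The median log2 ratio of the list was 1.93 beside -0.01 over all 9310 genes. Cdk1, the kinase whose activation with cyclin B starts mitosis, was at 342 against 89.5 CPM, 3.82 (3.42 to 4.27). Its partner Ccnb1 was at 189 against 69.4 CPM, 2.73 (2.36 to 3.15), a smaller ratio than that of Cdk1, while Ccna2, the cyclin of S phase and G2, was at 124 against 34.8 CPM, 3.55 (2.94 to 4.27). Ccnb2, the second B-type cyclin, was under 2-fold (1.65, 1.30 to 2.06). Plk1, which acts at centrosomes and kinetochores, was at 270.2 against 68.4 CPM, 3.95 (3.48 to 4.48); Pbk, a mitotic kinase, at 4.60 (3.99 to 5.29); and Bub1 and Ttk, kinases of the spindle checkpoint, at 3.47 and 4.02 (Bub1 2.25 at equal depth). Wee1, which holds Cdk1 inactive until entry into mitosis, was at 2.10 (1.77 to 2.49), but 1.71 at equal depth.

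Kinetochore genes followed closely. In the list of centromere and kinetochore genes 27 of 31 were higher and 0 lower, beside 3.14% and 1.42% over all genes. Their median log2 ratio was 1.67. Cenpe, a kinesin that moves chromosomes to the metaphase plate, was at 287 against 55.8 CPM, 5.15 (4.52 to 5.85), and Cenpf, a large protein of the outer kinetochore, at 622 against 149.9 CPM, 4.15 (3.82 to 4.51), with a count in 61.5% against 24.3% of cells at equal depth. Sgol1, shugoshin, which protects cohesion at centromeres, had a ratio of 8.90 (5.44 to 14.5) from 35 and 37 counts. Its relative Sgol2 was at 5.08 (4.09 to 6.28). The scaffold Casc5 (also called KNL1) was at 5.33 (4.09 to 6.90), Ndc80, which binds microtubules, at 3.29 (2.74 to 3.93), and the checkpoint proteins Bub1b and Mad2l1, of neighbouring lists, at 4.43 and 2.74. Cenpa, the histone H3 variant of centromeres, was scarce and reached 4.25 (2.62 to 6.74) from 28 counts in the members, and its chaperone Hjurp reached 5.33 (3.70 to 7.60), or 2.81 at equal depth.

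Spindle genes ranged widely in level and ratio, from the scarce Kif14 to the abundant tubulins with small ratios. Nusap1, also of this list, had a larger ratio than Kif14 at a higher level (7.15 at 225 CPM). Of 33 tested genes of the list of spindle, kinesins and centrosome, 27 were higher and 0 lower, beside 3.14% and 1.42% over all genes. Their median log2 ratio was 1.85. Kif11, the motor that pushes spindle poles apart, was at 242 against 46.3 CPM, 5.22 (4.53 to 6.00), with a count in 40.7% against 8.84% of cells at equal depth. Kif14, a motor of cytokinesis, and Kif18a, which damps chromosome movements, had ratios of 6.49 (4.23 to 9.87) and 5.02 (4.13 to 6.09). Aspm, a spindle pole protein, was at 4.38 and Tpx2, which activates Aurora A, at 3.18. Of the tubulins, Tubb4b, a beta tubulin, was at 1465 against 669.6 CPM, 2.19 (2.08 to 2.30), or 1.96 at equal depth, and Tubb5 at 1383 against 718 CPM, just under 2-fold (1.93, 1.83 to 2.03).

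For the machinery of cell division itself, 14 of 16 genes of the list of chromosomal passenger complex and cytokinesis were higher and 0 lower. Over all genes these shares were 3.14% and 1.42%. Depdc1 and Depdc1b, a pair of genes highly expressed in mitotic cells, were at 7.84 (5.55 to 11.0) and 6.76 (5.12 to 8.91), the latter 3.75 at equal depth. Prc1, which crosslinks the microtubules of the spindle midzone, was at 449 against 112 CPM, 4.00 (3.62 to 4.41). Aurkb and Cdca8, the kinase and a scaffold of the passenger complex, were at 4.51 and 3.11, its survivin subunit Birc5 at 2.49, and Ect2, the exchange factor that activates RhoA at the cleavage furrow, at 3.75. Rhoa, used for many other tasks, was at 571 against 517 CPM, a ratio of 1.11 (1.02 to 1.19).

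The condensin genes named here were at least 2-fold higher. The cohesin gene Rad21 was just under 2-fold, with an interval that includes 2-fold, and Esco2, of the same list, was at 4.44. The list of condensin, cohesin and topoisomerase (Top2a left out) had 10 of 20 higher and 0 lower, beside 3.14% and 1.42% over all genes. Its median log2 ratio was 1.00. Smc4 and Smc2, the core pair of condensin, were at 1236 against 331 CPM, 3.73 (3.52 to 3.95), and 519 against 156 CPM, 3.32 (3.03 to 3.62); a Smc4 count was found in 88.5% against 44.8% of cells at equal depth. Condensin subunits Ncaph and Ncapd2 reached 4.70 and 2.50. Rad21, a core subunit of cohesin, was at 607 against 309.7 CPM, under 2-fold (1.96, 1.81 to 2.12).

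The list of DREAM and FOXM1 regulators, which holds some of their targets, had 9 of 17 higher and 0 lower (median log2 ratio 1.11). The shares over all genes, for this list and the next, were 3.14% higher and 1.42% lower. Foxm1, the activator of late cell cycle genes, was scarce, at 36.3 against 12.8 CPM, 2.83 (2.00 to 3.95); Mybl2, the B-MYB subunit that converts MuvB into an activator, was at 2.47 (1.90 to 3.18), and the MuvB subunits Lin54 and Lin9 at 2.57 and 2.42 (Lin54 1.78 at equal depth). Hmgb2, a chromatin protein of cycling cells, was at 913 against 239 CPM, 3.82 (3.57 to 4.09). In the list of APC/C, checkpoint and mitotic exit, 8 of 22 were higher and 0 lower: Cdc20, the coactivator that starts anaphase, was at 263 against 94.5 CPM, 2.78 (2.46 to 3.14), Fbxo5 (EMI1), an inhibitor of the complex, at 4.52 (3.71 to 5.48), or 2.06 at equal depth, and Ube2t, a ubiquitin-conjugating enzyme of interstrand crosslink repair, at 4.86 (3.82 to 6.14). The core subunit Anapc5 was at 355 against 312 CPM, 1.14 (1.03 to 1.25), and Ube2s, which extends ubiquitin chains for the complex, at 1.96 (1.78 to 2.14).

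Genes of DNA replication were higher in sum but mostly under 2-fold one by one. In the list of DNA replication and S phase, 13 of 52 tested genes were at least 2-fold higher and 0 lower. Over all genes 3.14% were higher, 1.42% lower, and 4547 of 9310 had a ratio above 1. In the replication list 46 had a ratio above 1, and the median log2 ratio was 0.68. The summed list stood at 5303 against 3017 CPM, a ratio of 1.76 (1.71 to 1.80). Pcna, the sliding clamp of DNA polymerases, was at 761 against 373 CPM, 2.04 (1.90 to 2.18). Rrm1 and Rrm2, subunits of the enzyme that makes deoxyribonucleotides, were at 2.61 (2.32 to 2.92) and 2.85 (2.03 to 3.93), and Usp1, a deubiquitinase of PCNA, at 2.50 (2.24 to 2.79). The 6 subunits of the MCM helicase, Mcm2 to Mcm7, ranged from 1.25 (Mcm2) to 1.83 (Mcm4), all under 2-fold. Cdt1, which licenses origins in G1 and is destroyed in S phase, was at 13.1 against 18.5 CPM, 0.711 (0.407 to 1.16).

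Cell cycle entry genes were also uneven. Of 14 tested genes of the list of E2F and cell cycle entry, 5 were higher: Ccna2 and Mxd3 above, and with them Rbl1 (2.69, 1.89 to 3.75), Mybl2 (2.47) and E2f7, an E2F repressor (3.57, 1.99 to 6.17). The cyclins of the step from G1 to S were under 2-fold, Ccne2 at 58.7 against 51.6 CPM, 1.14 (0.884 to 1.44), and Ccne1 at 1.74 (1.09 to 2.68). The G1 cyclin Ccnd1 was at 300.3 against 325 CPM, 0.924 (0.830 to 1.03), and 0 of 10 genes of the list of G1 cyclins and growth passed 2-fold in either direction. Over all genes with a mean of 5 CPM, 3.14% were higher and 1.42% lower.

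In the list of DNA repair of replicating cells 10 of 16 were higher and 0 lower, beside 3.14% and 1.42% over all genes. Fancd2 and Fanci, which act together on crosslinked DNA, were at 3.97 (3.02 to 5.20) and 3.87 (2.44 to 5.99). Brca1 and Brca2 were at 2.47 and 2.67 (Brca2 1.29 at equal depth). Msh6 of mismatch repair was at 1.08 (0.847 to 1.37). Of the replication-dependent histones 6 of 8 tested genes were higher (median log2 ratio 1.40), and the whole list stood at 365 against 147 CPM, a ratio of 2.48 (2.24 to 2.75). Hist1h1d, a linker histone, was at 171 against 60.2 CPM, 2.83 (2.43 to 3.30), and Hist1h2ac at 4.20 (3.10 to 5.64). These transcripts largely lack poly(A) tails, the genes share near-identical copies, and how reads were split among copies when the authors counted is not stated in the sources at hand. The list of histone variants and chaperones had 4 of 11 higher and 0 lower, and its sum was 2278 against 1502 CPM, a ratio of 1.52 (1.46 to 1.58). H2afx, whose transcript can be polyadenylated, was at 284 against 84.5 CPM, 3.36 (2.98 to 3.79), and H2afz at 802 against 507 CPM, 1.58 (1.48 to 1.69).

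**Figure D3:**
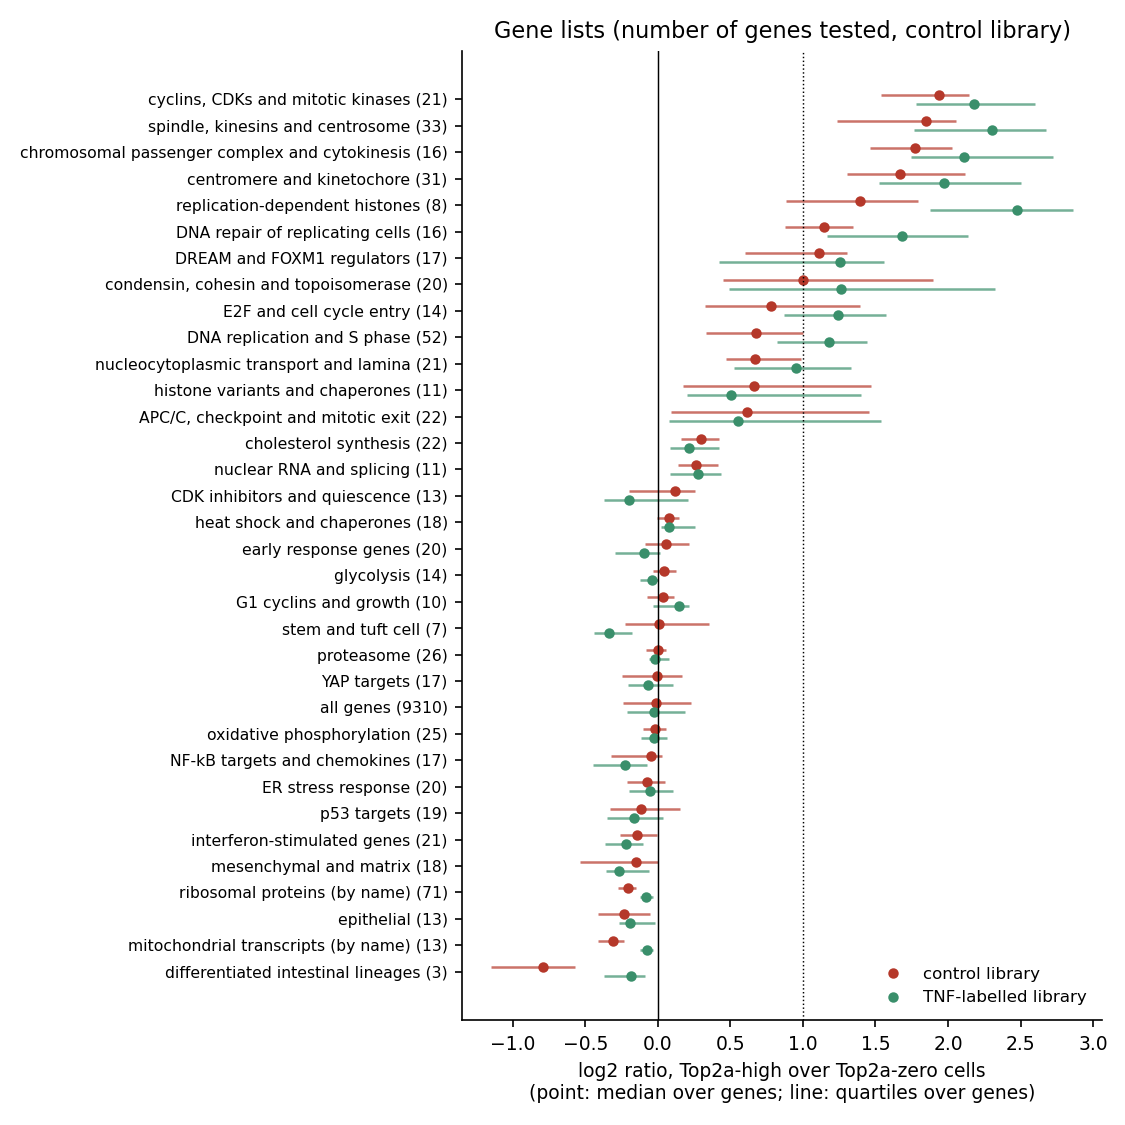
Median (point) and quartiles (line) over genes of the log2 ratio of Top2a-high over Top2a-zero cells for each gene list with at least 3 tested genes, in the control (red) and the TNF-labelled library (green), with the number tested in the control library; the dotted line is 2-fold. In the control library the 4 lists of mitosis and cytokinesis lead, at 1.67 to 1.93, replication stands at 0.68, and lists outside the cell cycle lie within 0.4 of 0, apart from nucleocytoplasmic transport (0.67) and the 3 genes of differentiated lineages (-0.79).

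Altogether the 12 cell cycle lists held 142 of the 292 higher genes other than Top2a, and 0 of their 245 tested genes was at least 2-fold lower. Of all 8451 tested genes, 3.47% were higher and 1.56% lower. The other 150 higher genes were in none of those lists. Among those with the largest lower bounds of the interval were Prr11 (9.07, 5.14 to 16.0, from 27 and 28 counts), Polq, a polymerase that joins broken DNA ends (71.8 against 11.8 CPM, 6.08, 4.63 to 7.94), Cdca2, which targets a phosphatase to chromosomes at mitotic exit (5.07, 4.14 to 6.20), and Rad51b of homologous recombination (293 against 64.7 CPM, 4.52, 3.99 to 5.12). Kpna2, an importin alpha that also acts in spindle assembly, was at 445 against 89.9 CPM, 4.95 (4.47 to 5.48); it had the largest ratio in the list of nucleocytoplasmic transport and lamina, in which 5 of 21 were higher, 0 lower and 20 had a ratio above 1. Lmnb1, a lamin of the nuclear envelope, was at 2.16 (1.54 to 2.97), whereas Lmna was at 927 against 979 CPM, 0.947 (0.891 to 1.00), and Ran, which drives nuclear transport, at 841 against 664 CPM, 1.27 (1.19 to 1.35).

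The CDK inhibitors named here were not lower in the Top2a-high cells. Of 13 tested genes of the list of CDK inhibitors and quiescence, 1 was higher and 0 lower. Over all 9310 genes with a mean of 5 CPM, 3.14% were higher and 1.42% lower. For a list this short the counts are near that share, and its median log2 ratio was 0.12. The higher gene was Cdkn2c, which encodes p18, an inhibitor of CDK4 and CDK6, at 134 against 62.5 CPM, 2.14 (1.80 to 2.52). Cdkn1b, encoding p27, was at 430.1 against 259 CPM, 1.66 (1.51 to 1.82), and Cdkn1a, encoding p21, at 27.8 against 20.8 CPM, 1.33 (0.913 to 1.90), an interval that includes 1. In the TNF-labelled library the ratios of these 3 genes were 1.14, 1.25 and 1.02.

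Outside the cell cycle most lists stayed close to equality. Glycolysis (median log2 ratio 0.04), oxidative phosphorylation (-0.02), proteasome (0.00) and heat shock and chaperones (0.08) had 0 genes past 2-fold in either direction. Over all 9310 genes with a mean of 5 CPM, 3.14% were higher, 1.42% lower and 4547 had a ratio above 1. For lists of 14 to 26 tested genes, 0 past 2-fold is close to that share. Gapdh was at 4044 against 3923 CPM, 1.03 (1.00 to 1.06). Cholesterol synthesis lay slightly higher: 21 of 22 tested genes had a ratio above 1 with none past 2-fold, and the list sum was 7116 against 5969 CPM, a ratio of 1.19 (1.17 to 1.22). Sqle, squalene epoxidase, was at 1032 against 779 CPM, 1.32 (1.25 to 1.40), and the same list in the TNF-labelled library had 18 of 22 above 1 and a median log2 ratio of 0.22 beside 0.30 here. Ribosomal protein genes had a ratio above 1 in 2 of 71 and a median of -0.20, and mitochondrial transcripts in 1 of 13 with a median of -0.31. In the TNF-labelled library these medians were nearer to equality, at -0.08 and -0.07. Members were deeper than Top2a-zero cells, and the part of depth in these medians was not tested. Epithelial genes had a ratio above 1 in 2 of 13, mesenchymal and matrix genes in 4 of 18 and interferon-stimulated genes in 5 of 21; the list sums were at 0.850 (0.825 to 0.876), 0.871 (0.854 to 0.888) and 0.904 (0.874 to 0.934). Krt18, the partner of Krt8, was the 1 epithelial gene at least 2-fold lower, at 47.9 against 97.3 CPM, 0.492 (0.375 to 0.636), but 0.610 at equal depth and 0.764 in the TNF-labelled library. Dclk1, a kinase of tuft cells named in the title of the study, was at 212 against 256 CPM, 0.826 (0.727 to 0.935), under 2-fold.

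The genes lower in Top2a-high cells formed no large group among the lists. Each of 5 lists held 1 of them, beside 1.42% of the 9310 genes with a mean of 5 CPM. Krt18 above was 1 of 13 tested epithelial genes. C3, the third complement component, was 1 of 17 tested NF-kB targets and chemokines (0.285, 0.0765 to 0.747). It had 4 counts in the members, with none left at equal depth. Ifit2 was 1 of 21 tested interferon-stimulated genes (0.269, 0.0862 to 0.639, from 5 counts). At equal depth the Ifit2 ratio was 0.574, with the members entered at the floor of 3 counts. Gkn2, a gastrokine, was 1 of 3 tested genes of differentiated lineages. Rpl39l, a copy of the ribosomal protein gene Rpl39, was 1 of 71 tested ribosomal protein genes (0.455, 0.239 to 0.791). Its ratio at equal depth was 0.513, and it may share reads with Rpl39. Slfn5, of the Schlafen family induced by interferon, had the narrowest interval of those below 0.3-fold: it was at 35.5 CPM in the Top2a-high and 136 CPM in the Top2a-zero cells, 0.261 (0.190 to 0.350), with a count in 7.14% against 22.5% of cells at equal depth and a ratio of 0.271 in the TNF-labelled library. Tcp11l2 was at 7.72 against 32.5 CPM, 0.238 (0.113 to 0.442), with 0.481 at equal depth and 0.170 in the TNF-labelled library. Pik3ip1, a negative regulator of PI3K, was at 20.1 against 51.6 CPM, 0.389 (0.252 to 0.575), and 0.678 in the TNF-labelled library. At equal depth its ratio was 0.152, but only 2 members had a count, so it rests on or near the floor of 3 counts. Pdcd4, an inhibitor of translation initiation, was at 74.1 against 149.7 CPM, 0.495 (0.399 to 0.608), beside 0.428 in the TNF-labelled library. Gkn2 was at 24.7 against 70.2 CPM, 0.352 (0.239 to 0.501); its ratio at equal depth was 0.658, and in the TNF-labelled library its ratio was 1.71. Cxcl3, a chemokine, was at 27.8 against 68.3 CPM, 0.407 (0.283 to 0.568), but 0.776 at equal depth, and Slc7a2, an arginine transporter, at 63.3 against 148 CPM, 0.426 (0.338 to 0.532), but 0.560 at equal depth. Igfbp6, Adamts3, Cdc42ep2 and Fbxw17 each rested on 4 counts in the members and had ratios of 0.20 to 0.22. At equal depth, where each had a count in 1 or 2 members and ratios rest on or near the floor of 3 counts, these were 0.567, 0.828, 0.559 and 0.606, and in the TNF-labelled library 1.05, 1.01, 0.674 and 0.955, all under 2-fold.

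The difference was present cell by cell. At 2000 counts per cell, the 57 genes of the mitosis list found in the files gave a median of 11 counts in the 182 members deep enough to be thinned (quartiles 8 and 15, range 3 to 24). Top2a-zero cells had a median of 3 (quartiles 1 and 5, range 0 to 23), and 9.61% of them had none, while 0 of 182 members had none, which allows a share of up to 2.01%. Cells with 1 Top2a count lay between, with a median of 5, and cells with 2 had a median of 7. The medians were thus ordered by Top2a count, and the highest Top2a-zero cells overlapped the members. For the replication list (56 genes) the medians were 5, 7, 9 and 10 counts from Top2a-zero cells to members, and the members' range of 2 to 27 lay within that of Top2a-zero cells, 0 to 29.

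**Figure D4:**
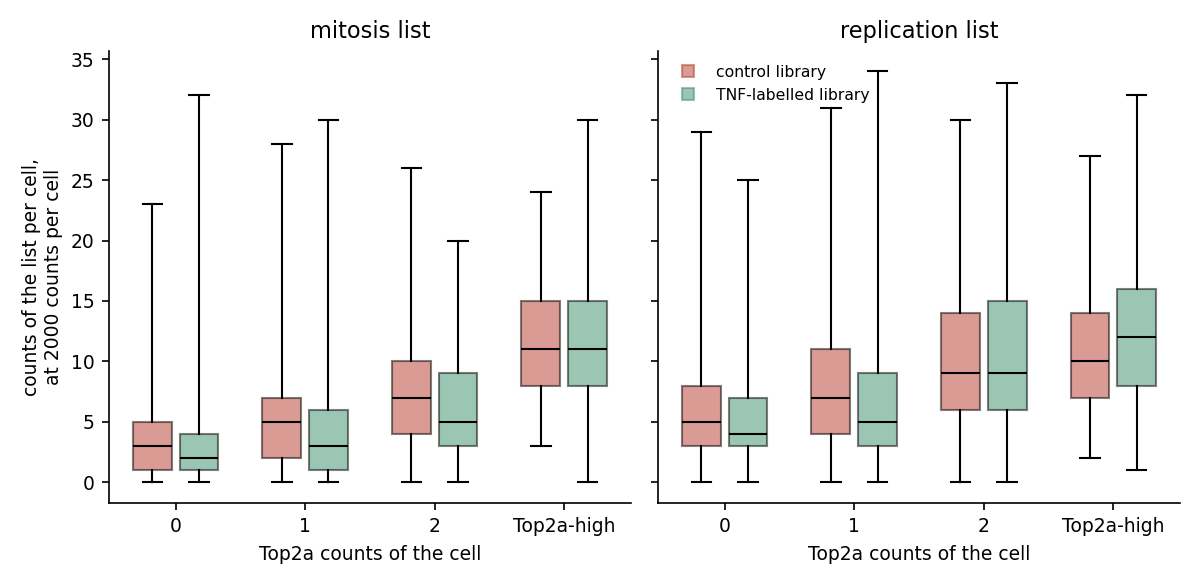
Counts per cell of the mitosis list (left) and the replication list (right) after thinning to 2000 counts, by the Top2a counts of the cell, in the control (red) and the TNF-labelled library (green); boxes are quartiles with the median, whiskers the lowest and highest cell. In control cells the mitosis median goes from 3 to 11 and the replication median from 5 to 10, and the ranges overlap.

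In summed CPM of cells with at least 2000 counts, and of all members, the mitosis list was higher at each step and the replication list was not. The mitosis list stood at 1825 CPM in Top2a-zero cells, 2495 CPM with 1 Top2a count, 3421 CPM with 2, 4337 CPM in the 158 cells with 3 or more counts but under 5 per 10000, and 5900 CPM in members. The replication list went from 3017 through 3935 and 5035 to 4850 CPM in those 158 cells and 5303 CPM in members. Within the members, the 53 cells with exactly 3 Top2a counts had 5109 CPM (4795 to 5438) of the mitosis list and the 70 cells with 6 or more had 6113 CPM (5934 to 6296). For replication these figures were 4901 CPM (4594 to 5224) and 5234 CPM (5069 to 5404). Members with 3 counts were shallower, with a median of 3350 counts against 10348.5.

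Members differed in which list they held more of. The share of mitosis counts in the sum of mitosis and replication counts ran from 17.5% to 89.2% per cell, with quartiles of 41.2% and 64.3%; in Top2a-zero cells its median was 35.7%. Over the 182 thinned members the counts of the lists had a Pearson correlation of -0.13 and a Spearman correlation of -0.16, while over Top2a-zero cells these were 0.31 and 0.41. Those are descriptions over cells of 1 library with few counts each. Top2a chose both groups of cells, and the part of that choice in these correlations was not tested. To see which other genes went with this share, members were split at its median of 52.2% into 94 mitosis-leaning and 95 replication-leaning cells. These are ends of a range and not cell types, and 49 cells lay within 5 percentage points of the cut. Median depth was 6083 and 5899 counts.

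The genes named next were outside both lists and reached 50 CPM on either side of this split. Mx1, an interferon-stimulated gene, was at 93.9 against 21.7 CPM in the mitosis-leaning and the replication-leaning members, 4.33 (2.39 to 8.38). It rested on 61 and 14 counts, and its list as a whole was at 1.06 (0.994 to 1.13). Cdc20 was at 392 against 132 CPM, a ratio of 2.98 (2.32 to 3.85), and Kpna2 at 645 against 243 CPM, 2.65 (2.20 to 3.20). Arl6ip1, a membrane protein of the endoplasmic reticulum, was at 746 against 324 CPM, 2.30 (1.96 to 2.72), and Fam64a, also called PIMREG, at 2.94 (2.16 to 4.07). Toward the other end, Ccne2, cyclin E2, was at 18.5 against 99.2 CPM, 0.186 (0.0914 to 0.348); its level in the replication-leaning members was above the 51.6 CPM of Top2a-zero cells and in the mitosis-leaning ones below it. Crip1, Dennd4a and Ocm2 were at 0.232 (0.109 to 0.455), 0.241 (0.0960 to 0.531) and 0.284 (0.125 to 0.585). They rested on 11 and 47, 8 and 33, and 10 and 35 counts. Like Mx1, they were picked after their values were seen. Rbl1, encoding p107, was at 0.276 (0.122 to 0.567) and Ticrr, which fires replication origins, at 0.325 (0.180 to 0.562). The replication-dependent histone list stood at 246 against 485 CPM, 0.508 (0.417 to 0.616), with 147 CPM in Top2a-zero cells.

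The given markers spread along this range. Nusap1 was higher in the mitosis-leaning members, 283 against 166 CPM, 1.71 (1.34 to 2.19). Esco2 lay toward the replication-leaning ones, 89.2 against 141 CPM, 0.633 (0.447 to 0.889), and Mxd3 had an interval that includes 1, 1.25 (0.919 to 1.72). Top2a itself was at 876 against 772 CPM, 1.13 (1.00 to 1.28), close to even, and Mki67 at 1.27 (1.12 to 1.44). Aurka is part of the mitosis list used for the split, and its 191 against 89.9 CPM follow from it. Condensin subunit Ncapg2, unlike the list of condensin, cohesin and topoisomerase as a whole, at 1.04 (0.989 to 1.09), lay toward replication, at 66.2 against 163 CPM, 0.407 (0.278 to 0.585). Lists outside the cell cycle ran from 0.803 (0.608 to 1.06) for differentiated intestinal lineages to 1.27 (0.981 to 1.66) for markers of white blood cells, endothelium and nerve, both with intervals that include 1. Glycolysis was at 1.06 (1.03 to 1.09), nucleocytoplasmic transport and lamina at 1.13 with an interval above 1, NF-kB targets and chemokines at 0.930 (0.883 to 0.979) and epithelial genes at 0.982 (0.927 to 1.04).

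**Figure D5:**
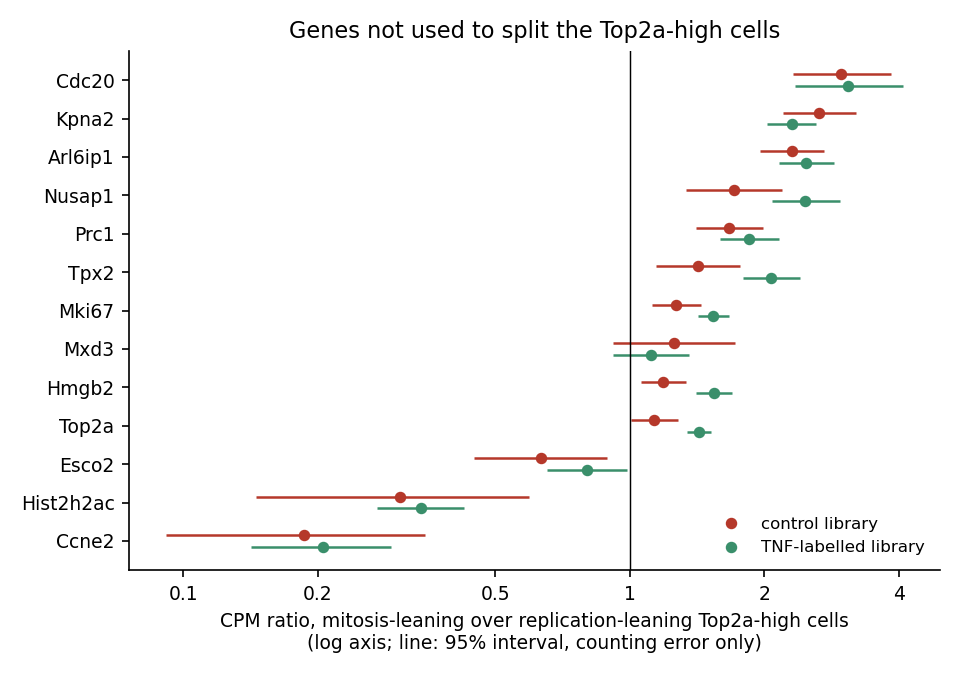
CPM ratio (log axis) of mitosis-leaning over replication-leaning Top2a-high cells for genes that were not used to split them, in the control (red) and the TNF-labelled library (green), with the 95% interval of counting error. Cdc20, Kpna2 and Arl6ip1 lie at 2.30 or more and Ccne2 at 0.186 in the control library, while the interval of Mxd3 includes 1 in both.

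The same rule applied to the TNF-labelled library gave 462 of 3457 kept cells (13.4%, 12.2 to 14.5%), beside the 3.31% of the control library. With 1 library on each side this difference has no replicate check. Thinned to 2000 counts, 13.8% of 2492 TNF-labelled cells (12.5 to 15.2%) and 4.38% of 3931 control cells (3.76 to 5.06%) had 2 or more Top2a counts, with 965 and 1781 shallower cells left out. At least 1 count was found in 29.5% and 19.2% after thinning, and in 43.7% and 33.6% of the same cells before it. The members also held more Top2a there, 1295 CPM beside 824 CPM, and up to 49 counts per cell beside 15. Of the Top2a counts of that library 75.3% lay in members, beside 32.4%.

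Many of the genes that set members apart from the Top2a-zero cells of their own library were past 2-fold in both libraries. In the TNF-labelled library 341 of 8279 tested genes (4.12%) were at least 2-fold higher and 57 (0.688%) lower. Of the 292 genes higher in control members, 234 were also higher there, which is 80.1% of the control's and 68.8% of the TNF-labelled library's 340 without Top2a; 286 had a ratio above 1 there and 204 had the larger ratio there. Of the 132 lower genes, 14 were lower in both, 10.6% and 24.6% of the lists. In the TNF-labelled library 97 of them had a ratio below 1 and 10 lay farther from 1. Over all genes with a mean of 5 CPM there, 4290 of 9251 had a ratio above 1, so ratios below 1 were common among all genes too. For the replication list, 34 of 54 tested genes were higher there beside 13 of 52 here, with median log2 ratios of 1.18 and 0.68. Replication-dependent histones had 2.47 beside 1.40, while cyclins, CDKs and mitotic kinases had 2.18 beside 1.93.

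These ratios combine levels in members with levels in Top2a-zero cells, which differed between the libraries too. The mitosis list was at 5900 CPM in control members and 5678 CPM in TNF-labelled members, while their Top2a-zero cells had 1825 and 1496 CPM. For replication the members stood at 5303 and 6170 CPM and the Top2a-zero cells at 3017 and 2706 CPM. Histone transcripts showed the wider gap between members, 365 and 679 CPM, with 147 and 152 CPM in Top2a-zero cells. Aurka ran the other way in level, at 141 CPM in control members and 60.0 CPM in TNF-labelled members, over 25.0 and 8.06 CPM in Top2a-zero cells, so its larger ratio in the TNF-labelled library came with a lower level in both kinds of cells. Plk1 had the same arrangement, 270.2 and 123 CPM in members over 68.4 and 22.5 CPM. Nusap1 was near even in members, 225 and 202 CPM. Mki67 was at 769 and 848 CPM in members. Among members, mitosis and replication counts had a Spearman correlation of -0.25 over 425 TNF-labelled cells beside -0.16 in the control library. In both libraries Top2a chose the members, and the part of that choice in the correlation was not tested.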

How the data were processed

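Single cells of 1 control and 1 TNF-labelled library were analysed. The authors deposited raw counts, whole numbers for each gene in each cell. Per the submitters' processing notes the build was Rnor_5.0. Not given in the sources used here are the aligner, the annotation, the choice of barcodes and whether counts are of unique molecules; intervals cover counting error only. Kept cells had at least 500 counts, 300 genes and at most 20% mitochondrial counts. Counts were summed per group of cells, scaled to CPM and compared as ratios, with a group under 3 counts entered at 3. A call needed 2-fold and 10 CPM in the higher group, and a list gene a mean of 5 CPM. Ratio intervals are exact conditional binomial, level intervals exact Poisson and share intervals exact Clopper-Pearson, all at 95%. Promoter sequences were matched by symbol or, where the symbol had no entry, by Ensembl gene identifier. Computations used Python 3.11.15, numpy 2.4.6, scipy 1.17.1, pandas 2.3.3 and, for TMM factors in 1 alternative, edgeR 4.0.16, and were tested on simulated data.

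The cells, markers and gene lists were chosen with earlier results of these data known. Named genes are the 5 given markers, the 20 higher genes with the largest and the 15 lower genes with the smallest interval bound nearest to 1, the 2 most abundant and 2 most different genes of each list, and Mki67, Pcna, Ccnb1, Ccne2, Cdkn1a and Dclk1. Not all of these are printed, and other genes in the text were chosen after their values were seen. Leaving out barcodes shared by the libraries was an alternative added after seeing the data.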

Additional observations from a re-analysis of the deposited data

How the results depend on the processing

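The 293 higher and 132 lower genes became 506 and 237 with cells thinned to 2000 counts. With members of at least 10 Top2a counts per 10000 they were 507 and 278, at 1.5-fold 666 and 533, and at 3-fold 126 and 20. The lower genes also moved to 73 with members of at least 2 Top2a counts, 278 at 5 CPM and 47 at 20 CPM. The other alternatives, among them the members' depth matched (373 and 198), cells above the 95th percentile left out (322 and 156) and TMM scaling (287 and 137), kept both counts within 1.5 times. Higher genes made up 68.9% of calls, 67.7% under TMM, and from 55.5% (1.5-fold) to 86.3% (3-fold) over all alternatives. Leaving out barcodes shared by the libraries, an alternative chosen after seeing the data, gave 293 and 133.

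The share of Top2a-high cells, 3.31%, was 5.15% with a minimum of 2 Top2a counts, 2.38% with 4, 1.12% with 10 per 10000, and after thinning 19.2% for at least 1 count and 4.38% for at least 2. Of 32 list medians, the 7 past 2-fold stayed above equality in 112 of 112 alternatives and fell under 2-fold in 6. Of 143 named genes, the 67 past 2-fold stayed on their side of equality in 938 of 938 alternatives and fell under 2-fold in 50. The limits are 1 library, no replicate, doublets left in and, for lower genes, a median of 9 counts in the members. No paired analysis was possible because each group has 1 library.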
